A study of Mus musculus with 6 samples.

Results

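Midkine and pleiotrophin are secreted heparin-binding growth factors, and the syndecans are membrane proteoglycans whose heparan sulfate chains bind such factors. The genes described here are Mdk (midkine), Ptn (pleiotrophin) and Sdc1, Sdc2, Sdc3 and Sdc4 (syndecans 1 to 4). They were taken by gene name, 6 of the 25805 genes listed for each library. Mdk and Sdc1 were chosen by measured values, since they were among the genes of smallest p between the groups in an earlier analysis of the same libraries, and the others complete both families. Differences between the groups are therefore given for all 6 as a description, and nothing here rests on a test of them.

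The study sequenced total RNA from mouse kidney after ischaemia-reperfusion injury (IRI), in which blood flow is stopped and restored as a model of acute kidney injury. One group of 3 libraries is labelled CXCR2 knockout with IRI, and the other group of 3 libraries is labelled WT with IRI, so injury is common to both and kidneys without injury were not analysed. The sources used here do not give strain, sex, age, time after injury or the design of the deleted allele. Nothing ties the libraries to separate animals, so errors and p-values measure the spread between libraries, which may be technical.

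Every library held between 15518083 and 20356601 reads. Values are normalized counts, that is, reads per gene after division by a single size factor for each library. Cxcr2, the targeted receptor, had 98.0, 36.8 and 56.6 normalized counts in labelled-knockout libraries 1 to 3, against 15.9, 88.8 and 56.9 in wild-type libraries 1 to 3, so the transcript was not lower where the label says knockout, and every direction below is one between labels. The count covers the whole gene, and reads outside a deleted part check nothing. Labelled-knockout library 1 stood apart in the markers of other tissues and of blood cells. Its 11 fat cell markers summed to 80385 normalized counts, against 7194 and 4902 in labelled-knockout libraries 2 and 3 and 5528 to 6376 in wild type. Its 7 erythrocyte markers summed to 13549.5, against 769.8 and 1050 in the other labelled-knockout libraries and 761 to 2973 in wild type. Its 10 neutrophil markers summed to 4568, against 449 and 1052 in the other labelled-knockout libraries and 406 to 1577.5 in wild type. The 12 proximal tubule markers, which check the kidney label, were detected in every library. They summed to 226667 to 261002 normalized counts in labelled knockout and 216084 to 288052 in wild type. The 12 markers of thick limb, distal tubule and collecting duct varied more. They summed to 107923, 58764 and 25392 in labelled-knockout libraries 1 to 3, against 51965 to 94429 in wild type.

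Midkine is low in most adult tissues, is induced by retinoic acid and after injury, and acts as a chemoattractant and survival factor. In the kidney it is known from the proximal tubule, where mice that lack it have milder ischaemic damage. Syndecans carry long heparan sulfate chains outside the cell and a short conserved tail inside it, whose end binds PDZ proteins such as syntenin. Their outer parts can be cut off by metalloproteinases.

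The members of each family share sequence that the choice by name did not use. Coding sequences were taken from GENCODE M21 (GRCm38, the build also called mm10). Mdk and Ptn each have 5 exons in their principal transcript, with coding sequences of 423 and 507 bases that were identical at 68.3% of 416 aligned bases. Their genes differ in extent, 2493 bases for Mdk on chromosome 2 and 95292 bases for Ptn on chromosome 6. The stretch of 90 bases in which both agree most is shown to make the kinship of the ligands visible. Capitals mark the 64 bases that are the same in both.
Mdk: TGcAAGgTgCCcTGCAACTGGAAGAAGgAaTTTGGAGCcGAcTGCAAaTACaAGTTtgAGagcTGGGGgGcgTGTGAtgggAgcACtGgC
Ptn: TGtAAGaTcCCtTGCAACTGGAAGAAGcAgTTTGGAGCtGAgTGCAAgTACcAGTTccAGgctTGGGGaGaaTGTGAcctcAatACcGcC

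The Mdk stretch is coding bases 199 to 288, at chr2:91930927-91931132 on the minus strand, and the Ptn stretch is coding bases 253 to 342, at chr6:36741387-36743363 on the minus strand. Each spans 2 exons and the intron between them. The syndecans also have 5 exons each, with coding sequences of 936 bases in Sdc1, 609 in Sdc2, 1329 in Sdc3 and 597 in Sdc4. Over the last 180 coding bases, which end in the inner tail, pairs of syndecans were identical at 70.3% to 76.2% of aligned bases. Upstream of these bases the pairs were identical at 61.2% to 72.9% of aligned bases. Gaps were not counted, and a shorter sequence can be spread over a longer one. The highest value, of Sdc3 with Sdc4, covers only 417 aligned bases. These upstream values therefore do not measure how alike the whole outer parts are. The last 60 coding bases are shown because they hold the end of the tail that the PDZ partners bind. Capitals mark the 14 positions with the same base in all 4 genes, of which 11 lie in the last 18 bases.
Sdc1: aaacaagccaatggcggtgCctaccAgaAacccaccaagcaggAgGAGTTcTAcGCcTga
Sdc2: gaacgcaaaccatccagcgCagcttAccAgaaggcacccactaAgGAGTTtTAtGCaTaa
Sdc3: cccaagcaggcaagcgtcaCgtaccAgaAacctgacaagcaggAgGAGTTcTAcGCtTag
Sdc4: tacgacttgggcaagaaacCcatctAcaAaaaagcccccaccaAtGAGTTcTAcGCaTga

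These bases lie in the last coding exon of each gene, at chr12:8791748-8791807 (plus strand) for Sdc1, chr15:33032481-33032540 (plus) for Sdc2, chr4:130822750-130822809 (plus) for Sdc3 and chr2:164426086-164426145 (minus) for Sdc4. Stretches shared with other genes make some counts uncertain. A stretch of 468 bases of Sdc1 is 94.9% identical to Gm16407, and 284 bases of Sdc2 are 93.7% identical to Gm32618, which held 6.67 reads per library. Sdc3 shares 222 identical bases with Gm26716 and overlaps the antisense gene Gm12970, which held 0.83 reads per library, and the use of strand is not given.

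**Figure D1:**
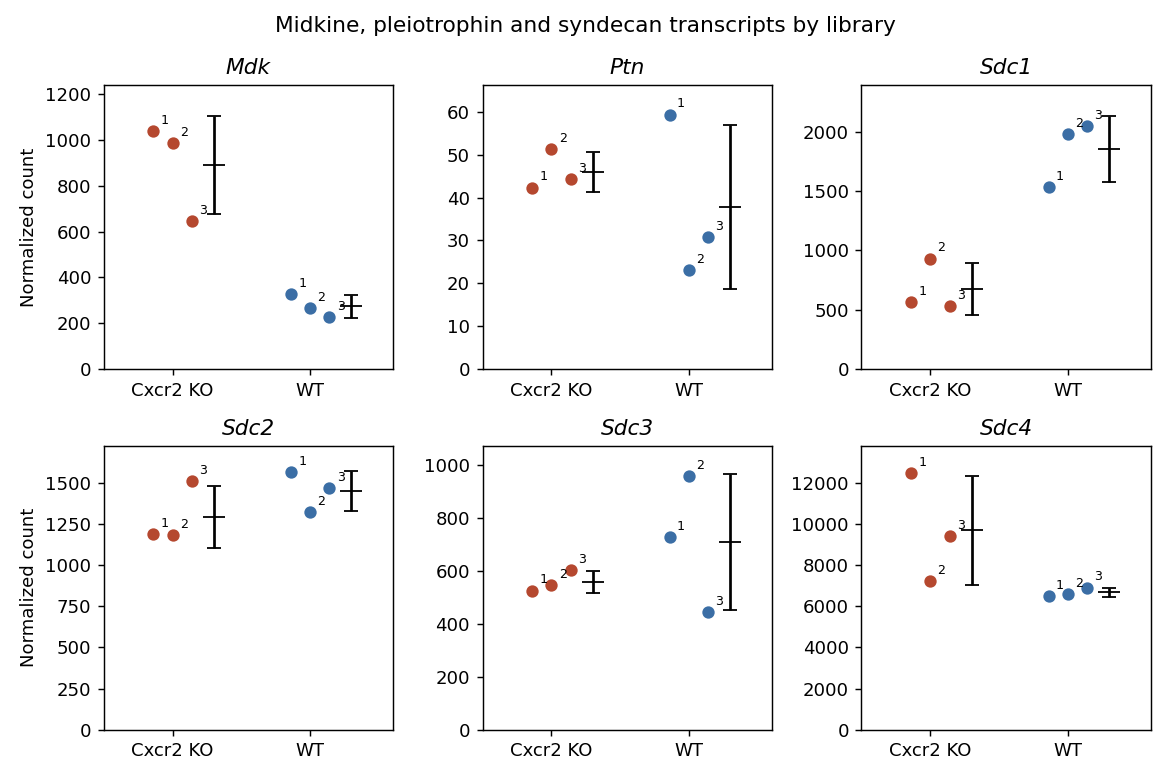
Normalized counts (vertical axes, from 0) of the 6 genes in each library, with labelled-knockout libraries (Cxcr2 KO, red) left of wild type (WT, blue); digits are library numbers and black bars are the mean ± SD of 3 libraries. Mdk and Sdc4 stand higher in every labelled-knockout library and Sdc1 lower, while the groups of Ptn, Sdc2 and Sdc3 overlap.

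Of the ligands, Mdk had the larger log2 fold change of labelled knockout over wild type. Mdk (ENSMUSG00000027239, chromosome 2 from 91929805 to 91932297) had 1039, 988 and 646 normalized counts in labelled-knockout libraries 1 to 3, against 328, 266 and 226 in wild-type libraries 1 to 3. Even the lowest labelled-knockout library, library 3, lay well above the highest wild-type library, so the groups did not overlap. The means were 891 ± 214 in labelled knockout and 273 ± 51.1 in wild type (SD, n = 3 each), a log2 fold change of 1.69 (SE 0.24) on the log2(normalized count + 1) scale, from 199 to 1021 reads per library. Leaving out any 1 library gave log2 fold changes between 1.56 and 1.90.

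Ptn, the paralogue of Mdk that signals through a receptor phosphatase in the nervous system, was scarce in every library. Ptn (ENSMUSG00000029838) had 42.3, 51.3 and 44.3 normalized counts in labelled knockout, against 59.3, 23.1 and 30.7 in wild type. Wild-type library 1 was the highest of all and the groups overlapped. The means were 46.0 ± 4.73 and 37.7 ± 19.1 (SD, n = 3 each) in labelled knockout and wild type, a log2 fold change of 0.38 (SE 0.43) from only 25 to 71 reads per library, and it was 0.76 without wild-type library 1 and 0.10 without wild-type library 2. Per kb of exon, Mdk was 63.7, 49.95 and 37.9 times the level of Ptn in labelled-knockout libraries 1 to 3, against 14.3, 29.8 and 19.1 times in wild type. The size of these ratios depends on the lengths used, which cover all annotated exons, 1324 bases for Mdk and 3433 for Ptn. The principal transcripts have 1054 and 1614 bases, and with those lengths the ratios would be smaller.

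Among the syndecans, Sdc1 had the most negative log2 fold change of labelled knockout over wild type. Sdc1, the syndecan of epithelia and of plasma cells (ENSMUSG00000020592, chromosome 12 from 8771323 to 8793715), had 567, 930.4 and 529 normalized counts in labelled-knockout libraries 1 to 3. In wild-type libraries 1 to 3 it had 1534, 1983 and 2048. The highest labelled-knockout library, library 2, lay below the lowest wild-type library, so the groups did not overlap. The means were 675 ± 222 in labelled knockout and 1855 ± 279.9 in wild type (SD, n = 3 each), a log2 fold change of -1.49 (SE 0.24), with values between -1.75 and -1.34 when any 1 library was dropped. The 9 plasma and B cell markers summed to 115 to 171 normalized counts in labelled knockout and 73.9 to 176 in wild type, with ranges that overlapped.

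Sdc4, the broadly expressed syndecan of focal adhesions (ENSMUSG00000017009, chromosome 2 from 164424247 to 164443887), ran the other way. It had 12479, 7215 and 9394 normalized counts in labelled-knockout libraries 1 to 3, against 6509.7, 6604 and 6899.8 in wild-type libraries 1 to 3. The groups did not overlap, but labelled-knockout library 2 lay only just above wild-type library 3, and the spread was much wider in labelled knockout. The means were 9696 ± 2645 and 6671 ± 204 (SD, n = 3 each) in labelled knockout and wild type, a log2 fold change of 0.50 (SE 0.21). It was 0.30 without labelled-knockout library 1, the library with the high fat cell sum, and 0.70 without labelled-knockout library 2. The part of other tissue in library 1 was not tested.

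Sdc2, a syndecan of mesenchymal and endothelial cells (ENSMUSG00000022261), was the steadiest of the 6 over both groups. It had 1189.6, 1184 and 1514 normalized counts in labelled knockout, against 1568, 1326 and 1469.8 in wild type. Labelled-knockout library 3 lay within the wild-type range and the other two below it, at means of 1296 ± 189 and 1455 ± 122 in labelled knockout and wild type (SD, n = 3 each) and a log2 fold change of -0.17 (SE 0.16). Sdc3, a syndecan best known from neurons (ENSMUSG00000025743), had 525, 545 and 602 normalized counts in labelled knockout, against 728, 957 and 445 in wild type. The wild-type libraries spanned the whole labelled-knockout range. The means were 557 ± 40.1 and 709.8 ± 256 in labelled knockout and wild type (SD, n = 3 each), a log2 fold change of -0.28 (SE 0.27), which was -0.03 without wild-type library 2 and -0.58 without wild-type library 3.

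Markers of the cell types that Sdc2 is known from had lower sums in labelled knockout. The 10 fibroblast and pericyte markers summed to 4791 to 13531 normalized counts in labelled knockout and 16488 to 35696 in wild type, with 8 of 10 lower on average and Lum at 0 in labelled-knockout library 3. The 10 endothelial markers summed to 5429.8 to 13132 in labelled knockout and 13177 to 22323 in wild type, with 9 of 10 lower on average. The part of these cells in the syndecan values was not tested. In bulk kidney, fewer cells of a type and less RNA per cell cannot be told apart.

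The contrast had chosen some of these genes, so their counts are given for scale alone. Of the 6 genes, 3 had no overlap between groups (Mdk, Sdc1 and Sdc4), where 17.7% of the 21721 genes tested had none. None of the 6 was called by limma at an adjusted p under 0.05, a threshold passed by 0.0046% of genes, and 3 had an unadjusted p under 0.05, as did 10.1% of genes. The edgeR test called none of them (0.00628% of genes called), and DESeq2 called 2, Mdk and Sdc1 (1.95% of genes called). The median log2 fold change was 0.11 over the 6 genes and -0.001 over all genes tested.

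**Figure D2:**
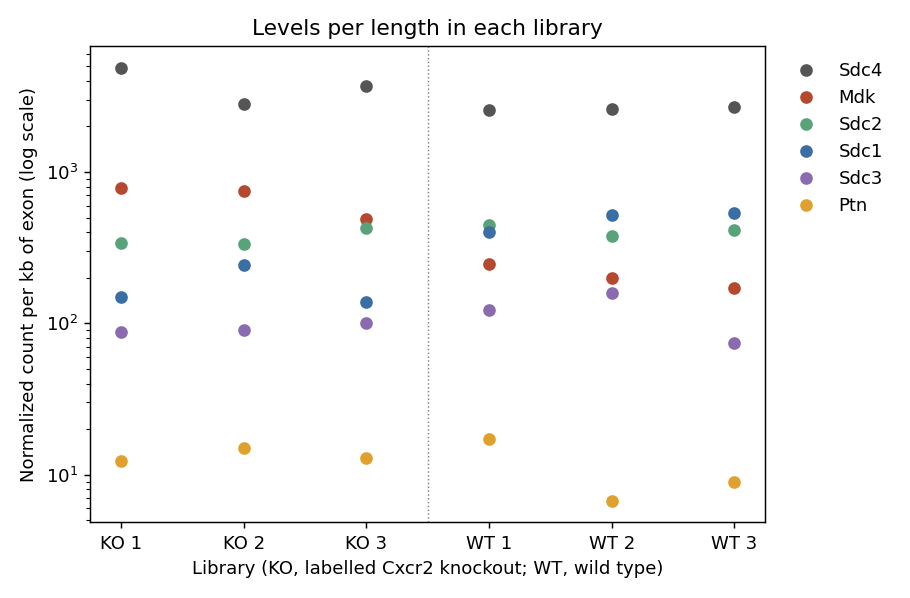
Level of each gene in each library as normalized counts per kb of exon (vertical axis, log scale), with labelled-knockout libraries (KO) left of wild-type libraries (WT). Sdc4 is at the top and Ptn at the bottom of all 6 libraries, and Mdk lies above Sdc2 and Sdc1 in the KO libraries and below both in the WT libraries.

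Per kb of exon, Sdc4 was the most abundant in all 6 libraries at 3213 ± 926 normalized counts per kb (SD, n = 6), above 98.7% of 17221 protein-coding genes. Mdk followed at 439.8 ± 276, Sdc2 at 389.9 ± 47.2, Sdc1 at 332 ± 179.6 and Sdc3 at 106 ± 30.8 normalized counts per kb. Ptn was the lowest in all 6 libraries at 12.2 ± 3.86 normalized counts per kb, above 28.8% of protein-coding genes.

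Neighbours in this order were compared within libraries on the log2 scale. The 4 pairs that hold Mdk or Sdc1, the genes with the largest differences between the groups, are given as a description, since that contrast chose the genes and it sets much of the spread of these pairs. Sdc4 exceeded Mdk in 6 of 6 libraries by 3.09 ± 0.75 on the log2 scale, Sdc1 exceeded Sdc3 in 6 of 6 by 1.49 ± 0.84 (SD, n = 6). Mdk minus Sdc2 averaged -0.08 ± 1.10 and Sdc2 minus Sdc1 0.43 ± 0.84 on the log2 scale (SD, n = 6), both within their spread, and the sign of the Mdk value is opposite to the order of mean levels. Sdc3 exceeded Ptn in 6 of 6 libraries by 3.14 ± 0.72 (SD, n = 6). Its exact two-sided paired permutation p was 0.03125, the smallest that 6 libraries can give. Any pair with 6 of 6 in one direction gives this p, so it adds nothing to that count. The order that set the pairs came from the same libraries. Adjustment over the 5 pairs raised it to 0.052, above the threshold of 0.05. This adjusted value also depends on the 4 pairs whose p is left out. In all 3 labelled-knockout libraries the order from high to low was Sdc4, Mdk, Sdc2, Sdc1, Sdc3 and Ptn. In wild-type libraries 2 and 3 it was Sdc4, Sdc1, Sdc2, Mdk, Sdc3 and Ptn, and wild-type library 1 had Sdc2 before Sdc1.

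**Figure D3:**
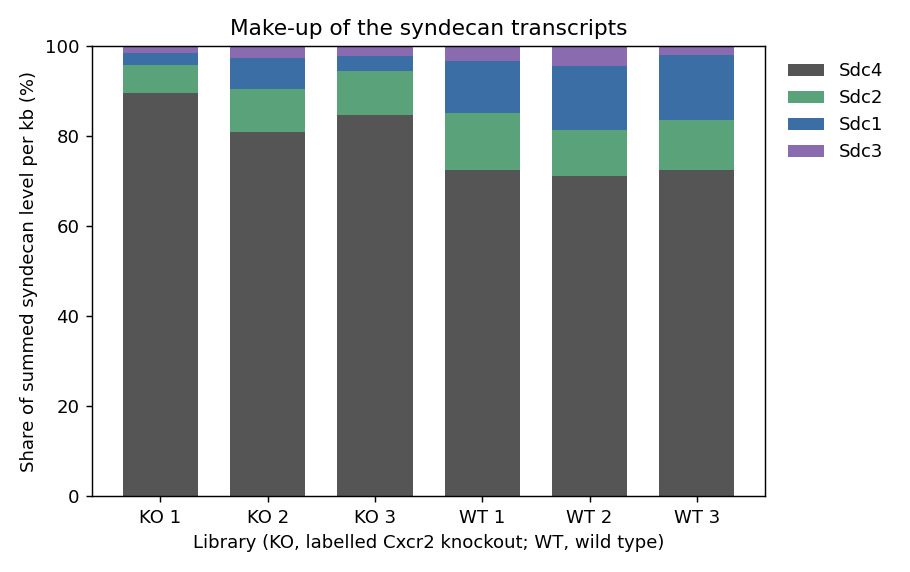
Share of each syndecan in the summed syndecan level per kb of exon (vertical axis, percent) in each library, labelled knockout (KO) left of wild type (WT). Sdc4 makes up 80.8% to 89.5% in the KO libraries and 71.1% to 72.5% in the WT libraries.

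Sdc4 supplied most syndecan transcripts in both groups. Its share of the summed syndecan level per kb was 85.0% ± 4.35 in labelled knockout and 72.0% ± 0.83 in wild type (SD, n = 3 each). The share of Sdc1 was 2.72%, 6.97% and 3.19% in labelled-knockout libraries 1 to 3, against 11.4%, 14.3% and 14.4% in wild type. Sdc2 held 6.16%, 9.58% and 9.85% in labelled knockout, against 12.6%, 10.3% and 11.1% in wild type, and Sdc3 held 2.17% ± 0.51 and 3.27% ± 1.21 (SD, n = 3 each) in labelled knockout and wild type. The summed level was 5473, 3504 and 4357 normalized counts per kb in labelled-knockout libraries 1 to 3, against 3525, 3649 and 3738 in wild type. Labelled-knockout library 2 thus lay below every wild-type library. The shares of Sdc1, Sdc2 and Sdc4 did not overlap between the groups, where 17.7% of all genes had no overlap in level. Shares add up to a fixed whole, so they depend on each other. The Sdc2 level itself overlapped, at 1184 to 1514 normalized counts in labelled knockout and 1326 to 1568 in wild type. These shares come from the contrast that chose the genes and are a description.

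Genes were ranked by how closely their profile over the 6 libraries followed each of the 6 genes, as the root-mean-square difference of centred log2 values, among 12035 named genes with a mean of at least 50 normalized counts. All points share the same 6 libraries, so the ranking describes these libraries alone. Closest to Mdk were Osr2, a zinc finger transcription factor (difference 0.22 log2 units, where Mdk itself varied by 0.88 around its mean), Slc16a14, a member of the monocarboxylate transporter family (0.28), and Trpv5, the apical calcium channel of the distal tubule (0.29). Osr2 had 379, 309 and 268 normalized counts in labelled knockout, against 151, 123 and 107 in wild type.

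Closest to Sdc1, which varied by 0.80, were the immediate early transcription factor Egr2 (0.18), the haem-binding protein gene Hebp2 (0.19) and the mitotic kinase gene Pbk (0.19). Egr2 had 60.1, 88.1 and 44.3 normalized counts in labelled knockout, against 159, 254 and 196 in wild type. Among the closest to Sdc4 were Traf6, a ubiquitin ligase of Toll-like receptor signalling (0.052), and the transcriptional kinase gene Cdk12 (0.061), where Sdc4 itself varied by 0.34. Traf6 had 733, 448 and 592 normalized counts in labelled knockout, against 419.6, 434 and 423 in wild type, with the same library 1 highest.

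For Ptn the closest were the sugar transporter gene Slc5a9 (0.14), the trypsin inhibitor gene Spink1 (0.16) and the folate enzyme gene Ftcd (0.16), where Ptn varied by 0.44. For Sdc2 they were the succinate dehydrogenase assembly factor Sdhaf2 (0.038), the glycine acyltransferase Glyat (0.051) and the thiopurine methyltransferase Tpmt (0.056), where Sdc2 varied by 0.16. For Sdc3 they were Zc3h6 (0.11), the snoRNP protein gene Gar1 (0.11) and the minor spliceosome gene Snrnp35 (0.12), where Sdc3 varied by 0.36.

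**Figure D4:**
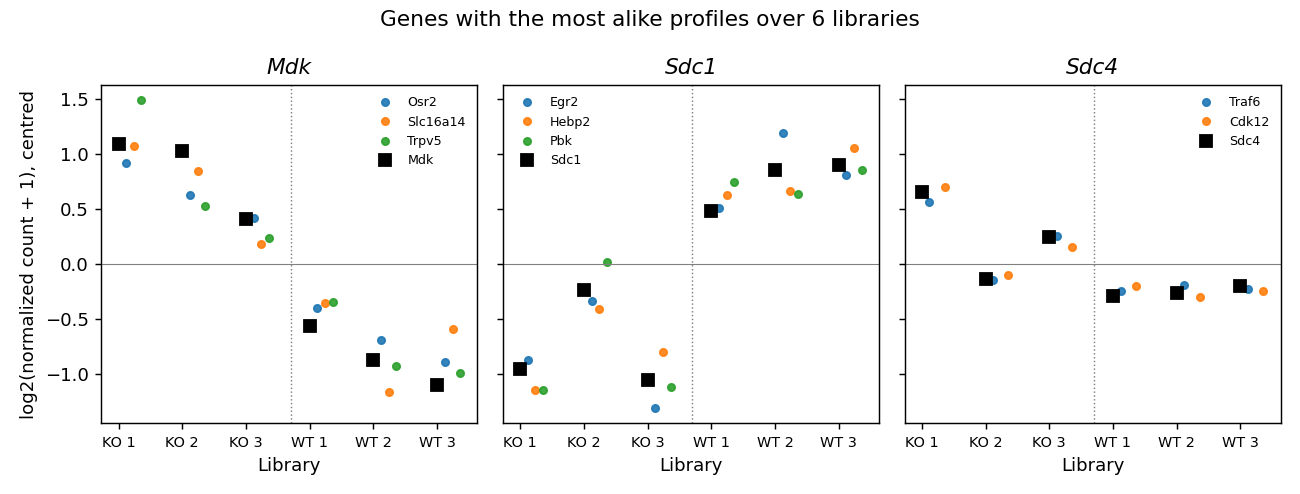
Centred log2(normalized count + 1) of Mdk, Sdc1 and Sdc4 (black squares) and of genes with the most alike profiles (coloured points) in each library, labelled knockout (KO) left of wild type (WT). The coloured points of the Sdc4 panel lie closest to their black squares, with differences of 0.052 and 0.061 log2 units.

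Signalling receptors of midkine and pleiotrophin were present at very different levels. Among 15 receptor genes, the most abundant per kb of exon were the integrin subunit Itgb1 (2067 normalized counts per kb), the endocytic receptor megalin, Lrp2 (659), and Ncl (628), which encodes nucleolin. The kinase gene Alk and the phosphatase gene Ptprz1, receptors best known from the nervous system, held 0 to 3 and 0 to 5 reads per library. Itgb1 averaged 7509 ± 1840 normalized counts in labelled knockout and 9365 ± 1275 in wild type (SD, n = 3 each), which is -0.34 on the log2 scale (SE 0.21, limma adjusted p = 0.605). Lrp2 averaged 13317 ± 5069 and 8710 ± 3059 (0.60, SE 0.34, limma adjusted p = 0.579) and Ncl 5677 ± 1146 and 7112 ± 1535 (-0.32, SE 0.23, limma adjusted p = 0.644) in labelled knockout and wild type. Of the 15 receptors, 0 passed limma, 1 had an unadjusted p under 0.05 (Notch2, higher), where 10.1% of all genes did, and the median log2 fold change was -0.04.

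The enzymes that build and trim heparan sulfate, the chain through which the ligands meet the syndecans, gave no call with limma or DESeq2. Of 29 synthesis genes tested, 15 had positive and 14 negative log2 fold changes (median 0.02), and 2 had an unadjusted p under 0.05, against 10.1% of all genes, the sulfotransferases Hs6st1 (0.51) and Hs3st1 (-0.79). The most abundant per kb were Papss2, which makes the sulfate donor (0.45), the linker enzyme gene B3gat3 (-0.16) and the UDP-glucose dehydrogenase gene Ugdh (-0.39), with limma adjusted p of 0.586, 0.726 and 0.552. Of 13 editing and breakdown genes, 10 had positive and 3 negative log2 fold changes (median 0.21). An unadjusted p under 0.05 was reached by 2, where 10.1% of all genes did so. Heparanase, Hpse, was among them (1.28, limma adjusted p = 0.429), from only 9 to 50 reads per library. Glb1 (0.12) and Hgsnat (-0.17) were among the most abundant members per kb, with limma adjusted p of 0.86 and 0.772.

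Among 10 other cell-surface and matrix heparan sulfate proteoglycans, the glypican Gpc4 had higher values in labelled knockout. It had 3228, 2776 and 2891 normalized counts in labelled-knockout libraries 1 to 3, against 1619.9, 1420.2 and 2129.7 in wild type. The groups did not overlap, the log2 fold change was 0.80 (SE 0.18), and it passed DESeq2 (adjusted p = 0.040) but not limma (adjusted p = 0.373). The basement membrane genes Col18a1 (-0.16, limma adjusted p = 0.786) and Agrn (0.20, limma adjusted p = 0.829) were the other most abundant members. No member passed limma, 2 had an unadjusted p under 0.05, Gpc4 and Gpc3, both higher, where 3.94% of all genes did so in this direction, and the median log2 fold change was -0.06.

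Proteases and inhibitors of syndecan shedding had mostly lower values, with 9 of 13 log2 fold changes negative and a median of -0.72, against -0.001 over all genes tested. As the list mixes proteases with their inhibitors, its median gives no direction for shedding. Some members were near the floor, such as Mmp16 (lower) with 0 to 6 and F2 (higher) with 0 to 10 reads per library. None passed limma or DESeq2. An unadjusted p under 0.05 was reached by Mmp3, Mmp14, Mmp15 and Timp2 among lower values and by Timp3 among higher ones, where 6.14% and 3.94% of all genes did so in these directions. The groups overlapped for Mmp3 and Timp2 but not for Mmp14, Mmp15 and Timp3, where 17.7% of all genes had no overlap. Timp3, a matrix-bound metalloproteinase inhibitor and the most abundant per kb, averaged 13818 ± 2116 normalized counts in labelled knockout and 8616 ± 2260 in wild type (0.70, SE 0.22, limma adjusted p = 0.398, SD over n = 3 each). Mmp14, a membrane metalloproteinase that sheds Sdc1, averaged 475 ± 47.5 and 802 ± 226 in labelled knockout and wild type (-0.72, SE 0.22, limma adjusted p = 0.394). Timp1 (-0.45) and the sheddase gene Adam10 (-0.14) had limma adjusted p of 0.738 and 0.791. The fibroblast and pericyte markers given above were lower in the same libraries, and their part was not tested.

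The partners of the syndecan tail were balanced, with 9 of 18 log2 fold changes positive and 9 negative and a median of -0.009. None passed limma or DESeq2. An unadjusted p under 0.05 was reached by 1, the focal adhesion gene Pxn (0.49, limma adjusted p = 0.407), where 10.1% of all genes did so. The most abundant per kb were the cytoskeletal genes Ezr (-0.08, limma adjusted p = 0.917), Actn4 (0.23, limma adjusted p = 0.74) and Cttn (-0.03, limma adjusted p = 0.967).

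Retinoid genes were examined because retinoic acid induces midkine. Of 19 genes, 10 had positive and 9 negative log2 fold changes (median 0.07), 0 passed limma and 5 had an unadjusted p under 0.05, against 10.1% of all genes. The retinoid receptor genes Rxra (0.49, limma adjusted p = 0.429) and Rara (0.65, limma adjusted p = 0.391) had higher values and Rarg (-0.90, limma adjusted p = 0.391) lower ones. The others were Stra6 (4.02, limma adjusted p = 0.155) and Aldh1a1 (-1.19, limma adjusted p = 0.251), and both passed DESeq2. Stra6 had 193, 64.9 and 97.8 normalized counts in labelled-knockout libraries 1 to 3. Its wild-type counts were very low, at 3.3, 9.3 and 5.7. The abundant members Dhrs3 (0.65) and Rdh10 (0.33) had limma adjusted p of 0.57 and 0.596. Of the 117 different genes tested in the 7 lists, 0 passed limma, 0 passed edgeR and 3 passed DESeq2, where 1.95% of all genes did, and 18 (15.4%) had an unadjusted p under 0.05, where 10.1% of all genes did. Notch2, Hs6st1, Hs3st1, Hpse, Gpc3, Mmp3, Mmp14, Mmp15, Timp2, Pxn, Rara, Rarg, Stra6 and Aldh1a1 were named after their values were seen.

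**Figure D5:**
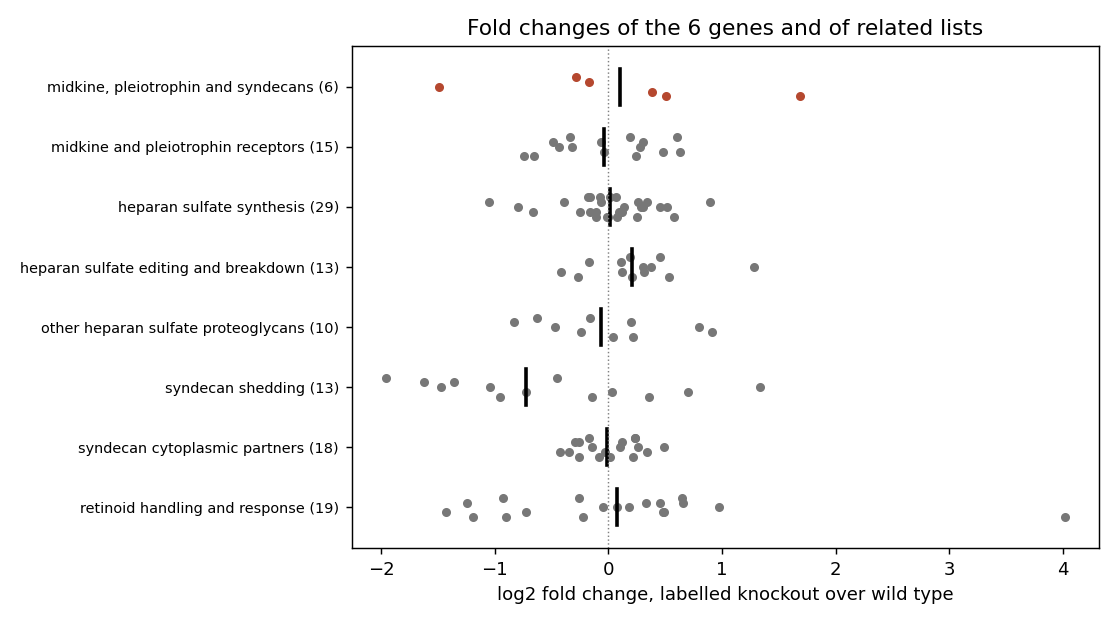
Log2 fold change of labelled knockout over wild type (horizontal axis) for each gene tested (points) in the 6 genes described (red) and in the 7 related lists (grey), with the number of genes in brackets and black bars at the medians. Mdk (1.69) and Sdc1 (-1.49) lie at opposite ends of the red points, and the shedding list has the lowest median (-0.72).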

How the data were processed

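The deposited signal of each gene is the authors' read count after division by a size factor, 1 for each library, which the values themselves reveal. In every library 100% of values were whole multiples of 1 step within 0.001 reads, so reads were recovered. Per the submitters' processing notes the build was mm10. The sources used here do not give the aligner, counting program, annotation release, strand use or library kit. Of 25805 identifiers, 99.9% were in GENCODE M21, and gene lengths are those of the files.

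Libraries were grouped by the genotype label. The 6 genes and all lists were chosen with earlier results of these data known. The test was limma 3.58.1 (trend, robust) on log2(normalized count + 1) over 21721 genes (mean normalized count of 1 or more), with Benjamini-Hochberg adjustment and a threshold of 0.05. With edgeR 4.0.16 (quasi-likelihood, TMM, 15915 genes) and DESeq2 1.42.0 (16222 genes with an adjusted p), recovered reads were tested as alternatives in R 4.3.3. Fold changes on this scale understate those of low genes. The exact paired test of neighbouring levels was planned and computed for all 5 pairs, and its p is left out for the 4 that hold Mdk or Sdc1, whatever its value, a choice made after the values were seen. A permutation test of 1 gene with 3 against 3 libraries cannot go below 0.1.

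Named by rule were the 6 genes, Cxcr2, the 3 most abundant members per kb of each list, any list member past limma, and the 3 genes of most alike profile. A few genes so chosen are not reported here. Coding sequences came from the GENCODE M21 transcripts, and copies in other transcripts (at least 100 bases and 90% identity) were sought with blastn 2.17.0.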

Additional observations from a re-analysis of the deposited data

How the results depend on the processing

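The log2 fold changes of the 6 genes kept their sign in all 84 recomputed values (14 alternatives each). Each also moved by less than the SD between replicates. With 1 of 3 libraries left out a larger move is not possible, so that bar says nothing about stability there. A changed filter on low values or a block for replicate number cannot move these fold changes. Those alternatives repeat the main values and say nothing about stability. With 1 library left out, Mdk ran from 1.56 to 1.90, Ptn from 0.10 to 0.76, Sdc1 from -1.75 to -1.34, Sdc2 from -0.29 to -0.11, Sdc3 from -0.58 to -0.03 and Sdc4 from 0.30 to 0.70. The count of genes called by limma was 1, against 5 with a pseudocount of 5, 5 without the filter on low values, 4 with TMM scaling and 316 with DESeq2. It ran from 1 to 6 with 1 library left out, with 6 without labelled-knockout library 1 and 3 without labelled-knockout library 3. Of the list genes, 3 were called with DESeq2 and 0 with limma, also with 1 library left out. The causes were not tested.

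The replicate numbers gave no clear pairing of the libraries, and so few pairs cannot exclude one. Deviations of same-numbered libraries from their group means correlated at 0.067, -0.15 and 0.12 over 12841 genes, and labelled-knockout library 2 correlated best with wild-type library 1 (0.20). With the replicate number as a block, 16 genes were called and 0 list genes.

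The log2 difference of Mdk and Sdc2 changed sign without wild-type libraries 1, 2 or 3 (0.073, 0.085 and 0.16) and ran from -0.34 to 0.16. Without length correction it was -1.49, with Mdk the lower in 6 of 6 libraries, and that of Sdc1 and Sdc3 was 0.84, against 1.49 per kb. With 5 libraries the exact test cannot go below 0.0625. Low depth limits Ptn, with 25 to 71 reads per library, and list genes with a few reads per library such as Alk and Ptprz1.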
